A study of Mus musculus with 12 samples.

Results

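Transforming growth factor beta (TGF-beta) is a family of secreted proteins, and 9 genes of its pathway were followed here: the ligands Tgfb1, Tgfb2 and Tgfb3, the latency protein Ltbp1, the receptors Tgfbr1, Tgfbr2 and Tgfbr3, the signal transducer Smad3 and the inhibitor Skil. They were chosen by gene symbol, 9 of the 54184 genes in the tables, with earlier results of these data known. All 9 were above the expression filter in each of the 6 comparisons. The libraries were poly-A RNA-seq of nephron progenitor cells (NPC), the stem-like cells of the cap mesenchyme that give rise to the nephron, taken at E13.5 from kidneys of CD1 mice by magnetic sorting and expanded in culture. The labels give every sample as wild type, and the methods name sires with or without Six2GFP, so some embryos may have carried that reporter. Cells were cultured for 24 h in one of 4 conditions with 3 libraries each. NPEM, the expansion medium, and DMEM, the basal medium, were the controls, and the composition of NPEM and the supplements of the DMEM control are not given in the sources used here. CHIR cells received 3.5 µM CHIR99021, a GSK3 inhibitor that activates WNT signaling, and YN1 cells received 20 µM YN1, which inhibits PFKFB3, an enzyme that drives glycolysis, both in DMEM-based differentiation medium with 200 ng/mL FGF2. NPEM and the 3 other conditions therefore differ in the whole medium, so the effect of a drug and of the medium cannot be told apart in a comparison with NPEM. Whether the DMEM control held the same FGF2 and other supplements is not given. A comparison of CHIR or YN1 with DMEM may therefore hold a difference in supplements beside the drug.

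TGF-beta ligands are secreted in a latent form, folded into their own propeptide and tethered to the extracellular matrix by latent TGF-beta binding proteins such as LTBP1. The released ligand binds the TGFBR2 receptor kinase, which recruits and phosphorylates TGFBR1, while TGFBR3 (betaglycan) is a co-receptor that presents ligand, TGF-beta 2 in particular. TGFBR1 phosphorylates SMAD2 and SMAD3, which enter the nucleus with SMAD4, and SKIL (SnoN) represses SMAD-bound promoters and is itself a target of the pathway.

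Values are TPM, a measure of transcript abundance scaled by transcript length and by the library total, and the depth of the libraries is unknown. Each library had between 13754 and 14569 genes at 1 TPM or more. The nephron progenitor markers (Six2, Cited1 and 8 others) had a mean of at least 1 TPM for 10 of 10 genes in NPEM, DMEM and YN1 and for 9 of 10 in CHIR. The stromal markers were present as well, 8 of 9 in NPEM and CHIR and 9 of 9 in DMEM and YN1, while of 6 macrophage markers Adgre1, Tyrobp and C1qa were at 0 in all 12 libraries, Ptprc and Csf1r were at most 0.707 TPM and Cd68 was at 2.57 to 8.45 TPM. Of 6 endothelial markers, Emcn was at 13.9 to 235 TPM and Kdr at 4.49 to 12.3 TPM in NPEM. Cdh5 was at most 0.0227 TPM, and Pecam1, Tie1 and Tek were at most 0.401 TPM. In these bulk samples, more cells of a type and more RNA per cell cannot be told apart. The libraries of replicate 2 stood apart: the summed stromal markers were 737 TPM in DMEM replicate 2 against 1695 and 1702 TPM in replicates 1 and 3, 521 against 1628 and 2239 TPM in CHIR, and 684 against 1624 and 1963 TPM in YN1, while the NPEM libraries lay between 518 and 991 TPM. Most of each stromal sum was Col1a1, at 1273, 543 and 1446 TPM in DMEM replicates 1 to 3. In DMEM, Pdgfrb, Tbx18 and Ntn1 were also lowest in replicate 2, while Foxd1, Pdgfra, Meis1, Dcn and Lum were not. The part of these marker levels in the results on the 9 genes was not tested. The summed progenitor markers were highest in replicate 2 of every group. Libraries with the same replicate number deviated together from their group means, so values from a fit with that number as a block are given as well.

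The promoters of Tgfb1, Tgfb2 and Ltbp1 are shown as those of the ligands and the latency protein that could be matched. RefSeq promoter sequences (GRCm38.p6, the mm10 assembly, 250 bases before to 50 bases after a start site) matched 6 of the 9 genes, namely Tgfb1, Tgfb2, Tgfbr1, Tgfbr2, Smad3 and Ltbp1. Both strands were searched for the TATA-box letters TATAAA, for GGGCGG (GC box), TGACGTCA (cAMP response element), TGACTCA (AP-1 site), CAGACA (Smad-binding element), GTCTAGAC (Smad palindrome) and CTTTGAT (TCF/LEF site), and capitals mark each match. No motif contains another. The first is Tgfb1 (chr7:25686752-25687051, plus strand), the second Tgfb2 (chr1:186705940-186706239, minus strand), followed by the upstream start (chr17:75005279-75005578, plus strand) and the downstream start (chr17:75178531-75178830, plus strand) of Ltbp1.
Tgfb1: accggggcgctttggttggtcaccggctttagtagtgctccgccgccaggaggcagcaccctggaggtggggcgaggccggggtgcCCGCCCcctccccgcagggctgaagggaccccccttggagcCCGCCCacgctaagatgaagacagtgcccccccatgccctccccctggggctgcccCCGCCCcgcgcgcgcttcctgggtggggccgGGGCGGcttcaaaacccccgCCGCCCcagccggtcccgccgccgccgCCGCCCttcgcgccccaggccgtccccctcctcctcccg
Tgfb2: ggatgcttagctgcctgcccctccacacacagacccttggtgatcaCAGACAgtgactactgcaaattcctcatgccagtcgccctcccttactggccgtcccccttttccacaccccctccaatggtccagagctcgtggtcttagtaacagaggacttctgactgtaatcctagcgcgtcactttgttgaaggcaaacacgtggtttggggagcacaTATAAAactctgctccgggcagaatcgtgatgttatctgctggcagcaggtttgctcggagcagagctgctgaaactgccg
Ltbp1 upstream start: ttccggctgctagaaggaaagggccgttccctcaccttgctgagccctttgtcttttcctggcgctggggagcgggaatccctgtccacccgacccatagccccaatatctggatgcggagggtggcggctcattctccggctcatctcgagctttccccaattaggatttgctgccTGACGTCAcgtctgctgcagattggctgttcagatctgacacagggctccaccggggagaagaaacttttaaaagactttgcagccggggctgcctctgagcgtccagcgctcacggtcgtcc
Ltbp1 downstream start: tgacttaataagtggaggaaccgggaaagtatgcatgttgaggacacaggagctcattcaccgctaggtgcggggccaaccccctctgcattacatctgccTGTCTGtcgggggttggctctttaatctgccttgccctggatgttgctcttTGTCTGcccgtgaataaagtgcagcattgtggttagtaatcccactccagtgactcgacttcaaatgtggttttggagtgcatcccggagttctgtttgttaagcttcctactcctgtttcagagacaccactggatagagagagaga

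The Tgfb1 window held GC boxes and no TATA box, while the Tgfb2 window held a TATA box at -31 from the start site and a CAGACA at -204. The upstream Ltbp1 window held a full cAMP response element at -73, and the downstream window held CAGACA in reverse at -149 and -98. Of 32851 promoter windows of the same length, 35.7% held a GC box, 13.6% a TATA box, 1.79% the cAMP response element and 21.0% CAGACA. AP-1 sites (5.20% of windows), the Smad palindrome (0.213%) and TCF/LEF sites (3.73%) were found in none of the members' windows. Of the other genes, the Smad3 window held GC boxes, the 2 Tgfbr1 windows held GC boxes and a CAGACA respectively, and the Tgfbr2 window held no motif. A match here is a description of the letters, not of binding.

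Gene positions are those of RefSeq on GRCm38.p6. Tgfb3 (chr12:86056743-86079041), one of the isoforms that signals through the same receptors as Tgfb1, was at 37.95, 16.4 and 24.2 TPM in NPEM replicates 1 to 3, at 124, 44.9 and 103 TPM in DMEM, at 161, 52.7 and 197 TPM in CHIR and at 194, 45.7 and 122 TPM in YN1. Every library of the other groups was above every NPEM library, and replicate 2 was the lowest of each group. The mean was 26.2 ± 10.9 TPM in NPEM (SD, n = 3), 90.7 ± 41.1 in DMEM, 137 ± 74.8 in CHIR and 121 ± 74.1 in YN1. Against NPEM, the LogFC (difference on the log2(TPM + 1) scale) was 1.71 ± 0.44 in DMEM, 2.22 ± 0.52 in CHIR and 2.01 ± 0.54 in YN1 (SE), with limma adjusted p of 0.145, 0.157 and 0.172. With the replicate number as a block, the adjusted p was 0.0184, 0.0365 and 0.0491, and Tgfb3 was the only member past the threshold against NPEM in all 3 comparisons, which share the NPEM libraries. Without CHIR replicate 2 the adjusted p without a block was 0.0265 in CHIR against NPEM, and without both replicate 2 libraries it was 0.0424. Leaving out another single library there gave an adjusted p of up to 0.463.

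Tgfb2 (chr1:186622787-186709697), the ligand that needs the co-receptor Tgfbr3 for high-affinity binding, was at 27.9, 29.7 and 16.5 TPM in NPEM and at 57.8, 55.7 and 39.8 TPM in DMEM. It was at 80.7, 54.3 and 44.3 TPM in YN1 and at 75.9, 23.5 and 99.2 TPM in CHIR. DMEM and YN1 did not overlap NPEM, while CHIR did because CHIR replicate 2 was below 2 of the NPEM libraries. The LogFC against NPEM was 1.04 ± 0.26 in DMEM, 1.20 ± 0.53 in CHIR and 1.24 ± 0.30 in YN1 (limma adjusted p = 0.141, 0.446 and 0.151). With the replicate block Tgfb2 was higher in DMEM (adjusted p = 0.0242) and did not pass the threshold in YN1 (0.0571) or CHIR (0.306).

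Tgfb1 (chr7:25687002-25705077), the most widely expressed isoform, was at 23.7, 24.7 and 30.1 TPM in NPEM, 31.2, 10.7 and 17.9 TPM in DMEM, 27.0, 5.89 and 19.3 TPM in CHIR and 35.6, 9.35 and 22.0 TPM in YN1. The groups overlapped in every comparison. In DMEM, CHIR and YN1 replicate 1 was above its NPEM partner and replicates 2 and 3 were below theirs. The LogFC against NPEM was -0.49, -0.78 and -0.39 in DMEM, CHIR and YN1, with limma adjusted p of 0.577, 0.620 and 0.729, and none passed the threshold with the block. Leaving out YN1 replicate 2 alone gave a LogFC of 0.10 in YN1 against NPEM.

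**Figure D1:**
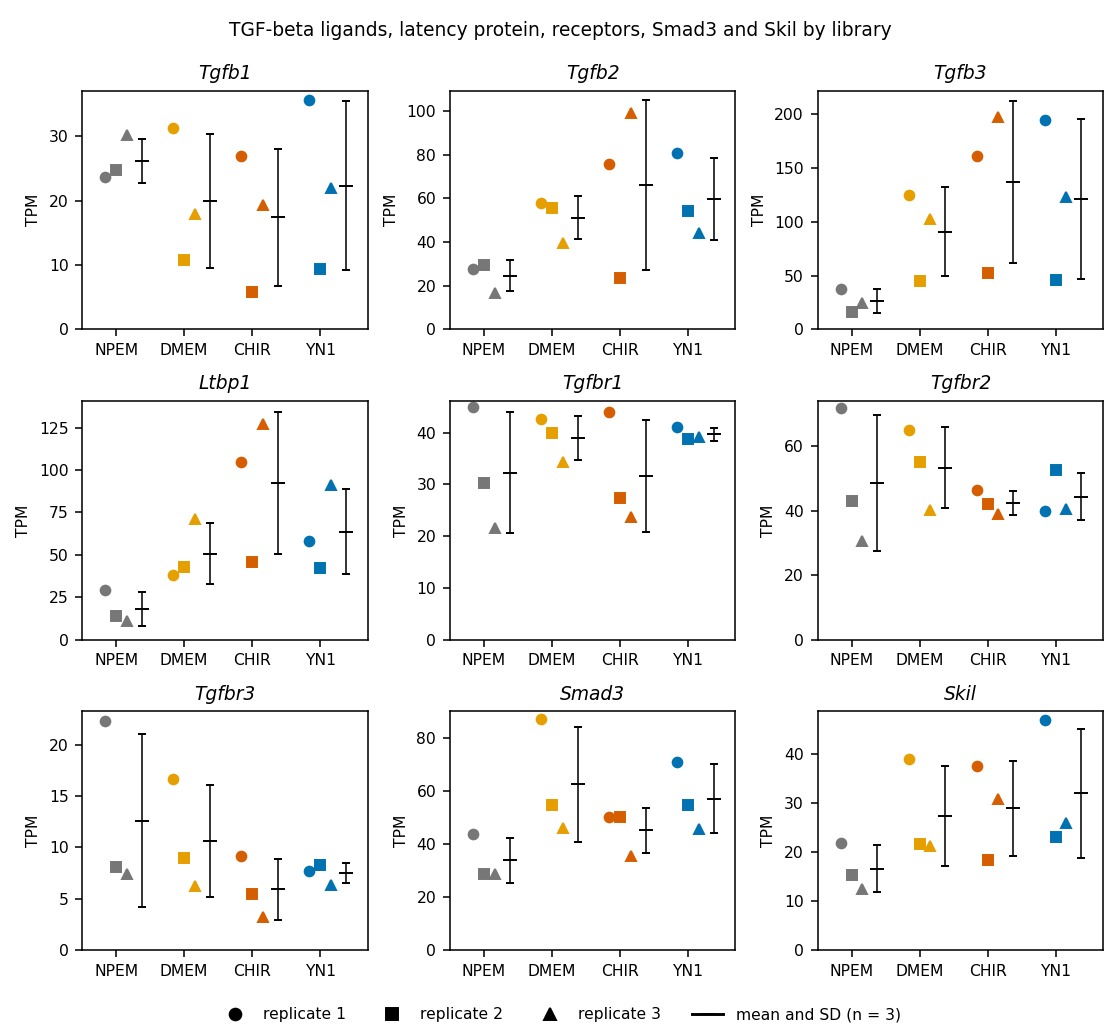
TPM of each gene in the 12 libraries, by group, with marker shape for the replicate number and the mean ± SD (n = 3) beside each group. Tgfb3 and Ltbp1 lie above all NPEM libraries in every other group, and Tgfbr1 and Tgfbr2 overlap throughout.

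Tgfb1 made up 26.5, 34.9 and 42.5% of the summed TPM of the ligands in the 3 NPEM libraries, and between 6.12 and 14.6% in the 9 others, so the groups did not overlap. Its mean share was 34.6 ± 8.03% in NPEM (SD, n = 3), 11.8 ± 2.55% in DMEM, 7.84 ± 2.14% in CHIR and 10.6 ± 1.73% in YN1. In each of the 3 comparisons with NPEM the two-sided exact permutation p was 0.1, the smallest that 3 against 3 libraries can give, and 0.400 after adjustment over 24 tests. That test treated the 6 libraries as unpaired and did not use the replicate number. The share was lower in 3 of 3 same-numbered pairs. The summed ligand level was 77.0 ± 10.9 TPM in NPEM, 162 ± 51.03 in DMEM, 220.2 ± 122 in CHIR and 203 ± 101 in YN1. CHIR replicate 2, at 82.1 TPM, was the only library of the other media below an NPEM library (89.6 TPM in replicate 1). The mean of Tgfb1 itself was lower in each of the other media, so the rise in the mean summed TPM was in Tgfb2 and Tgfb3 transcripts. In single libraries this did not always hold. Tgfb1 was also above its NPEM partner in replicate 1 of each medium, and Tgfb2 was below its partner in CHIR replicate 2. Tgfb3 was the most abundant of the 9 genes by mean TPM in DMEM, CHIR and YN1, whereas in NPEM the means of the ligands (26.2, 26.2 and 24.7 TPM for Tgfb3, Tgfb1 and Tgfb2) lay within their SD of each other.

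**Figure D2:**
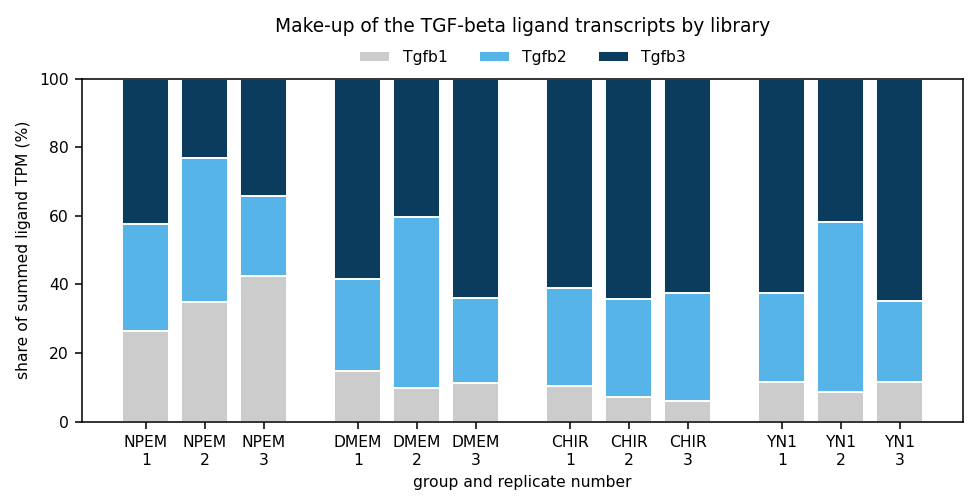
Share of each ligand in the summed TPM of Tgfb1, Tgfb2 and Tgfb3 (percent), 1 bar per library, grouped by condition and numbered by replicate. The Tgfb1 share is 26.5% or more in NPEM and 14.6% or less in every other library.

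Ltbp1 (chr17:75005480-75392512), which binds latent ligand and places it in the matrix, had the widest range of group means of the 9 genes, 2.28 on the log2 scale. It was at 29.5, 13.9 and 11.02 TPM in NPEM, 38.1, 42.7 and 71.3 TPM in DMEM, 105, 45.7 and 127 TPM in CHIR and 58.0, 42.1 and 90.9 TPM in YN1. No library of the other groups fell within the NPEM range. The LogFC against NPEM was 1.5 ± 0.40 in DMEM, 2.28 ± 0.47 in CHIR and 1.81 ± 0.41 in YN1, with limma adjusted p of 0.152, 0.118 and 0.139. The replicate block did not bring it past the threshold (0.0948, 0.0637 and 0.0972). In CHIR against NPEM without a block, leaving out CHIR replicate 2 did (0.0423), while leaving out another single library gave up to 0.376. Ltbp1 was higher in CHIR than in DMEM in 3 of 3 pairs, with a LogFC of 0.78 and a 95% interval of -0.21 to 1.77 without the block and 0.12 to 1.45 with it (block adjusted p = 0.103).

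The receptors Tgfbr1 and Tgfbr2 had the narrowest ranges of group means of the 9 genes, 0.36 and 0.30 on the log2 scale. Tgfbr2 (chr9:116087695-116175363), the receptor kinase that binds ligand first, was at 71.8, 43.0 and 30.7 TPM in NPEM, 64.8, 55.2 and 40.1 TPM in DMEM, 46.3, 42.2 and 38.9 TPM in CHIR and 39.7, 52.7 and 40.7 TPM in YN1. Tgfbr1 (chr4:47353222-47414926), the kinase that phosphorylates the receptor SMADs, was at 44.9, 30.4 and 21.6 TPM in NPEM, and its other libraries lay between 23.7 and 44.0 TPM. For both genes the groups overlapped in every comparison. The LogFC against NPEM was 0.32, -0.02 and 0.35 for Tgfbr1 and 0.19, -0.10 and -0.05 for Tgfbr2 in DMEM, CHIR and YN1, with 95% intervals from -0.79 to 0.96 and from -0.81 to 0.97 over the 3 comparisons, so a change of the size seen in Tgfb3 lay outside these intervals.

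Tgfbr3 (chr5:107106567-107289629), the co-receptor, had the lowest mean of the 9 genes in all 4 groups. It was at 22.3, 8.12 and 7.37 TPM in NPEM, 16.7, 8.97 and 6.24 TPM in DMEM, 9.12, 5.47 and 3.22 TPM in CHIR and 7.73, 8.28 and 6.38 TPM in YN1. CHIR was lower than DMEM in 3 of 3 pairs, with a LogFC of -0.74 ± 0.44 (limma adjusted p = 0.404) that became significant with the replicate block (SE 0.15, adjusted p = 0.0448). In that blocked comparison 9.44% of all genes tested were lower. Against NPEM the LogFC was -0.90 in CHIR, with 0 of 3 pairs higher and a 95% interval of -2.06 to 0.27 without the block and -1.45 to -0.35 with it (block adjusted p = 0.121).

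Smad3 (chr9:63646766-63757994), the transducer that binds DNA directly, was at 43.6, 28.8 and 28.8 TPM in NPEM, 86.8, 54.4 and 45.9 TPM in DMEM, 50.02, 50.05 and 35.3 TPM in CHIR and 71.0, 54.5 and 45.5 TPM in YN1. DMEM and YN1 did not overlap NPEM, and CHIR did. The LogFC against NPEM was 0.84 ± 0.28 in DMEM, 0.42 ± 0.23 in CHIR and 0.74 ± 0.24 in YN1 (limma adjusted p = 0.235, 0.563 and 0.233), and only DMEM passed with the block (0.0286). CHIR was below DMEM in 3 of 3 pairs, with a LogFC of -0.42 (block adjusted p = 0.120).

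Skil (chr3:31095058-31122923), the repressor of SMAD complexes, was at 21.9, 15.4 and 12.5 TPM in NPEM, 39.1, 21.7 and 21.2 TPM in DMEM, 37.6, 18.4 and 30.8 TPM in CHIR and 47.0, 23.0 and 25.9 TPM in YN1. Each library was above its NPEM partner, and the YN1 libraries did not overlap NPEM. The LogFC was 0.67 ± 0.31, 0.75 ± 0.32 and 0.87 ± 0.32 against NPEM, with limma adjusted p of 0.360, 0.419 and 0.289, and with the block 0.0506, 0.174 and 0.0821.

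**Figure D3:**
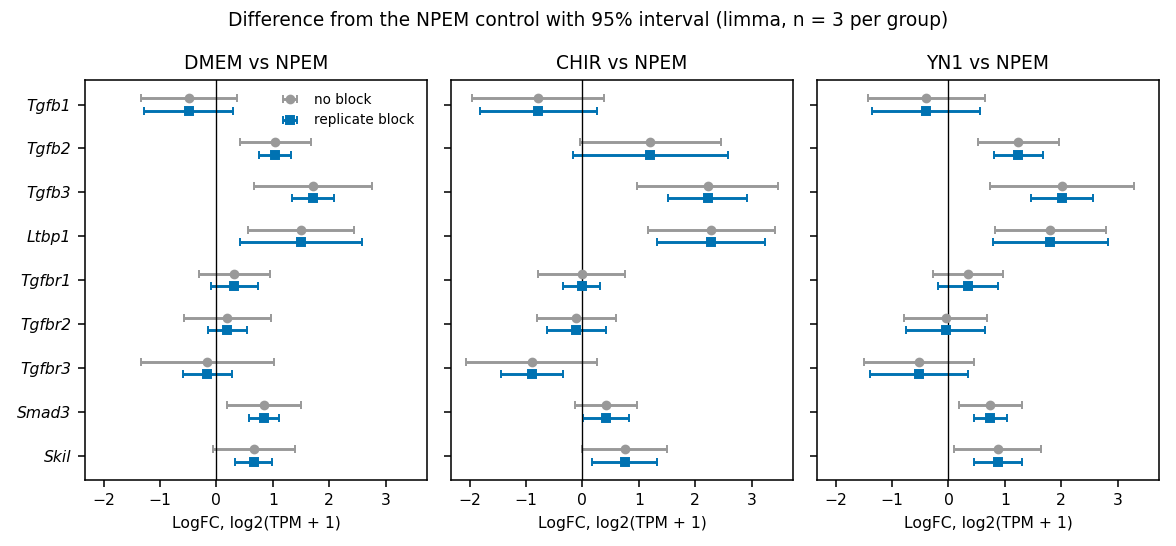
LogFC on the log2(TPM + 1) scale of each gene against NPEM, with 95% intervals from limma without a block (grey circles) and with the replicate number as a block (blue squares), n = 3 per group. Tgfb3 and Ltbp1 lie above 0 in all 3 panels with both fits, and Tgfbr1 and Tgfbr2 span 0.

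Across the 9 genes, limma called none at an adjusted p under 0.05 without the block in any of the 6 comparisons. Of all genes tested, the percentage called was 0.446% in DMEM against NPEM, 0.378% in CHIR against NPEM, 0.230% in YN1 against NPEM, 0.252% in CHIR against DMEM, 0% in YN1 against DMEM and 0.00701% in YN1 against CHIR. The study's cut-offs (LogFC over 0.6 and unadjusted p under 0.05) were applied here to limma values, while the study applied them to another test, Sleuth. By these cut-offs 4 members were higher in DMEM than in NPEM (Tgfb2, Tgfb3, Ltbp1 and Smad3, against 7.68% of all genes). In CHIR 2 were higher (Tgfb3 and Ltbp1, against 3.41%) and in YN1 5 (those of DMEM and Skil, against 7.26%). At an unadjusted p under 0.05 alone the members were the same 4, 2 and 5 (against 10.8%, 4.40% and 9.51% of all genes higher), and no member was lower. With the block 5, 4 and 5 members were higher at an unadjusted p under 0.05 (against 19.6%, 7.26% and 15.6% of all genes), and Tgfbr3 was lower in CHIR (against 12% of all genes). The genes of the fit without the block were those in which all libraries lay above NPEM, as was the case for 15.1%, 5.66% and 14.2% of all genes. With the block, 3 members in DMEM (4.32% of all genes were higher), 1 in CHIR (0.698%) and 1 in YN1 (0.489%) were past adjusted p of 0.05. The median LogFC of the 9 genes against NPEM was 0.66 in DMEM, 0.42 in CHIR and 0.74 in YN1, against 0.09, -0.06 and 0.09 over all genes. The 9 genes were chosen with earlier results of these data known, so setting them beside all genes is a description and not a test. Quantile normalization took the all-gene medians to -0.02, -0.01 and -0.02 and the members' medians to 0.55, 0.48 and 0.66.

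In CHIR against DMEM, YN1 against DMEM and YN1 against CHIR, 0 of 9 members had an unadjusted limma p under 0.05 without the block, while 19.2%, 0.517% and 15.5% of all genes did. With the block the members were 4 (Tgfb3 and Ltbp1 higher, Tgfbr3 and Smad3 lower), 1 (Skil higher) and 3 (Tgfb1 and Smad3 higher, Ltbp1 lower), against 35.6%, 7.41% and 30.8% of all genes, and of these Tgfbr3 in CHIR against DMEM passed the adjusted p. In YN1 against DMEM no gene of 14500 was past adjusted p of 0.05, with or without the block, and the members' LogFC lay between -0.36 (Tgfbr3) and 0.31 (Ltbp1). The 95% interval there was -1.15 to 1.76 for Tgfb3 and -0.29 to 0.35 for Tgfbr1, and with the block that of Tgfb3 was -0.02 to 0.63. In CHIR against DMEM 34.6% of all genes had a LogFC above 0 (50.5% after quantile normalization), and the median was -0.29 for the members and -0.15 for all genes, which became -0.07 and 0.00 after quantile normalization. In YN1 against CHIR the medians were 0.13 and 0.16, and -0.07 and -0.00 after it.

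The wider pathway was followed through 66 genes, of which 63 were measured. Fbn2, Ldlrad4 and Acta2 were not analysed here. Among 16 transcriptional targets tested, 1 passed adjusted p in DMEM against NPEM (0.446% of all genes did) and in CHIR against NPEM (0.378%). None passed in YN1 against NPEM (0.230%). The gene that passed was Tagln, which encodes the actin-binding protein transgelin and is a target of SMAD3 in smooth muscle and myofibroblasts. It was at 100.4, 96.6 and 44.4 TPM in NPEM, 1508, 457 and 1281 TPM in DMEM, 2142, 747 and 2421 TPM in CHIR and 2659, 501 and 1700 TPM in YN1, with every NPEM library below all others. All libraries lay above NPEM for 15.1% of all genes in DMEM, 5.66% in CHIR and 14.2% in YN1. The LogFC of Tagln was 3.65, 4.36 and 4.10, with limma adjusted p of 0.0473, 0.0286 and 0.0704. Leaving out any library but DMEM replicate 2 raised the DMEM adjusted p to between 0.0783 and 0.178, and leaving out any but CHIR replicate 2 raised the CHIR adjusted p to between 0.0803 and 0.129. Without YN1 replicate 2 the YN1 adjusted p was 0.0169.

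Ctgf, a matricellular target chosen after its values were seen, was at 11.6, 18.3 and 20.7 TPM in NPEM, at 300.2, 44.4 and 151 TPM in DMEM, at 438, 35.8 and 437 TPM in CHIR and at 651, 45.6 and 228 TPM in YN1. Every library of the other media was above NPEM, as was the case for the shares of all genes given with Tagln. Replicate 2 was the lowest of each of these media. The LogFC was 2.87 ± 0.65, 3.46 ± 0.93 and 3.46 ± 0.87 against NPEM, with limma adjusted p of 0.117, 0.194 and 0.160, and with the block 0.0619, 0.118 and 0.104. The paired differences in replicates 1 to 3 were 4.58, 1.23 and 2.81 in DMEM and 5.12, 0.93 and 4.34 in CHIR. Over the 16 targets, 6, 4 and 6 genes were over 1 log2 unit above NPEM in replicates 1, 2 and 3 of DMEM, 8, 3 and 8 in CHIR, and 6, 3 and 7 in YN1. Over all genes tested the share that far above NPEM was 6.45, 6.99 and 5.88% in DMEM, 6.35, 3.63 and 5.10% in CHIR and 7.80, 6.86 and 6.60% in YN1. Replicate 2 had the lowest stromal sum, most of it Col1a1, of each of these groups and the highest progenitor sum. The part these sums play in the targets was not tested.

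**Figure D4:**
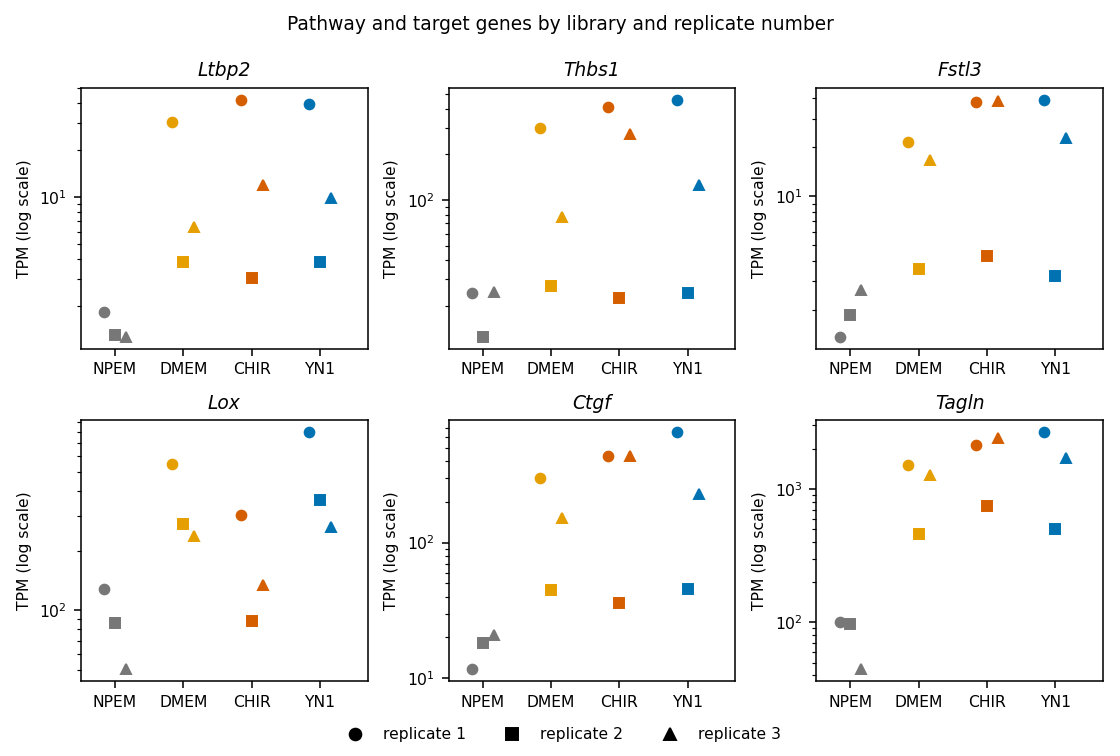
TPM on a log axis of Ltbp2, Thbs1, Fstl3, Lox, Ctgf and Tagln in the 12 libraries, by group, with marker shape for the replicate number. Ctgf in replicate 2 is 35.8 to 45.6 TPM in DMEM, CHIR and YN1, while replicates 1 and 3 lie between 151 and 651 TPM.

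Lox and Tgfb1i1 were named after their values were seen. Lox, which crosslinks collagen and elastin, had a LogFC of 1.99 in DMEM against NPEM and 2.35 in YN1 against NPEM, with block adjusted p of 0.0133 and 0.0261 and 3 of 3 pairs higher in each. It was lower in CHIR than in DMEM (LogFC -1.10, block adjusted p = 0.0326), the only target lower there with the block, while 4 of 16 were higher (against 9.44% of all genes lower and 3.36% higher), and the list median was 0.41 beside -0.15 for all genes. Tgfb1i1, the adapter Hic-5, had a LogFC of 0.77 in DMEM against NPEM (block adjusted p = 0.0289). Without the block the adjusted p was 0.104 and 0.111 for Lox in DMEM and YN1 and 0.0609 for Tgfb1i1. With the block, 5 targets were higher and 2 lower in DMEM against NPEM (Tgfbi and Cdkn1a beside the named genes, and Snai1 and Postn lower), 3 higher in CHIR (Tagln, Cdkn1a and Bhlhe40) and 1 higher and 1 lower in YN1 (Lox and Postn), and these names too were picked after their values were seen. Of all genes, 4.32% were higher and 2.19% lower with the block in DMEM, 0.698% higher in CHIR, and 0.489% higher and 0.265% lower in YN1. The list median was 0.51, 0.63 and 0.56 against NPEM.

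Among 10 latency and activation genes tested in DMEM against NPEM, none passed the adjusted p without the block. Fbn1, Furin and Bgn, named after their values were seen, were higher with it (against 4.32% of all genes). Ltbp2, a matrix protein related to Ltbp1, was at 1.82, 1.31 and 1.27 TPM in NPEM, against 3.04 to 42.3 TPM in the others, with a LogFC of 2.09, 2.42 and 2.40 (limma adjusted p = 0.218, 0.290 and 0.209). Thbs1, thrombospondin-1, an activator of latent TGF-beta, had a LogFC of 2.07, 2.74 and 2.47, with adjusted p of 0.287, 0.350 and 0.300, and its differences in replicate 2 were 1.05, 0.81 and 0.92 against 3.56, 4.02 and 4.18 in replicate 1. The median LogFC of the list was 0.40 in DMEM, 0.16 in CHIR and 0.28 in YN1 against NPEM, beside -0.06 to 0.09 for all genes. Ltbp3, another latency protein, was lower in CHIR than in DMEM (LogFC -0.58, limma adjusted p = 0.151, with the block 0.0358). It was the only 1 of 11 tested there that passed with the block, while 9.44% of all genes were lower by that call. The median LogFC over all genes there was -0.15.

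Among the activin, Nodal and GDF genes, Fst (follistatin, which binds activin) was at 0.790, 0.321 and 2.17 TPM in NPEM and 66.6, 4.42 and 47.7 TPM in CHIR. The LogFC was 3.74 in CHIR, 1.89 in DMEM and 2.02 in YN1 against NPEM, with limma adjusted p of 0.173, 0.266 and 0.269, and DMEM passed with the block (0.0448). With the block, 4.32% of all genes were higher in DMEM. Fstl3, a related activin antagonist, had a LogFC of 2.09, 2.80 and 2.46 in DMEM, CHIR and YN1 (adjusted p = 0.183, 0.207 and 0.233). Gdf11, a ligand related to myostatin, was at 27.4 to 31.7 TPM in NPEM and at 18.2 to 25.1 TPM in the 9 other libraries. All libraries lay below NPEM for 7.02% of all genes in DMEM, 11.3% in CHIR and 6.99% in YN1. The LogFC of Gdf11 was -0.33, -0.40 and -0.45 in DMEM, CHIR and YN1 (limma adjusted p = 0.356, 0.381 and 0.298).

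All 6 of the further receptors tested had a LogFC below 0 in CHIR against NPEM (median -0.68, beside -0.06 for all genes) and in CHIR against DMEM (-0.66, beside -0.15). Of all genes, 41.2% and 34.6% had a LogFC above 0 in these comparisons. None of the 6 passed the adjusted p without the block. With it, 3 were lower in CHIR against DMEM (against 9.44% of all genes). Bambi, a decoy receptor that blocks TGF-beta and BMP signaling, was at 30.8, 20.4 and 19.1 TPM in DMEM and 11.99, 10.3 and 5.85 TPM in CHIR, and these groups did not overlap. Of all genes, 20.2% had every CHIR library below every DMEM library. The LogFC of Bambi was -1.25 (limma adjusted p = 0.116, with the block 0.0252). Bambi was higher in YN1 than in CHIR (LogFC 1.12, block adjusted p = 0.0480) and in DMEM than in NPEM (LogFC 0.83, block adjusted p = 0.0415). With the block, 1.11% and 4.32% of all genes were higher in these comparisons. Acvr2a, an activin receptor, had a LogFC of -1.52 in CHIR against NPEM (block adjusted p = 0.0508), and Eng, the co-receptor endoglin, of -1.64 (block adjusted p = 0.0532). The endothelial markers summed to 99.2 to 135 TPM in NPEM and 14.9 to 32.2 TPM in CHIR, most of it Emcn. In DMEM they summed to 98.7 to 240 TPM. Eng was at 32.7, 6.72 and 9.26 TPM in NPEM and 12.4, 5.09 and 3.29 TPM in DMEM. The part of the endothelial markers in the Eng difference was not tested.

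Among the Smads and transducers, Smad4, the shared partner of receptor SMADs, was lower in CHIR than in DMEM (LogFC -0.41, limma adjusted p = 0.149, with the block 0.0473), with 0 of 3 pairs higher. It was the only 1 of 6 tested that passed with the block, while 9.44% of all genes were lower by that call. The median LogFC over all genes in CHIR against DMEM was -0.15. Smad2, the other TGF-beta receptor SMAD, had a LogFC of -0.16 there (adjusted p = 0.6), Zfyve9 (SARA, which anchors SMADs to the receptor) of -0.38 (adjusted p = 0.403), and Trim33, a SMAD4 regulator, of 0.24 in YN1 against CHIR (adjusted p = 0.494). Of the inhibitors, Ski, the paralog of Skil, had a LogFC of -0.35 in CHIR against DMEM (adjusted p = 0.201). Tgif1, a SMAD corepressor, had a LogFC of 0.42 in DMEM against NPEM (adjusted p = 0.232), and Smad7, which blocks the receptor, of 0.17 (adjusted p = 0.745). Pmepa1, a feedback inhibitor induced by TGF-beta, had a LogFC of 0.99, 1.42 and 0.93 in DMEM, CHIR and YN1 against NPEM, with 3 of 3 pairs higher in each and limma adjusted p of 0.325, 0.362 and 0.372, of which DMEM passed with the block (0.0476). Of all genes, 4.32% were higher with the block in DMEM against NPEM.

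Over the 12 libraries, the profiles most like that of Tgfb3 were Skap2 (Pearson r = 0.987), Igfbp7 (0.985) and Myh9 (0.978), and those most like Ltbp1 were Trabd2b (0.928), Gxylt2 (0.927) and Lrig3 (0.920), of 11983 genes compared. These values describe 12 libraries that share their replicate structure and the difference between NPEM and the other media. Among the members, Tgfb3 and Ltbp1 had r = 0.877 and Tgfb3 and Skil 0.870, while Tgfb1 and Tgfb3 had 0.237 over all libraries and 0.886 after the group means were removed.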

How the data were processed

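The deposited files are gene tables of TPM made by the authors: reads were aligned with STAR to mouse genome builds that the notes name as mm9 and mm10, RSEM is named as well, and the TPM were estimated with Kallisto and collapsed to genes. Versions and the annotation are not given in the sources used here, and libraries were poly-A selected and not stranded, so overlapping antisense genes cannot be told apart. Read length is given as 2 different values in the sources. The tables also hold the authors' own test columns (Sleuth) and further files hold their comparisons, which were not used. TPM keeps no depth.

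The 12 libraries were grouped by GEO's treatment label. Each pair of groups was tested with limma 3.58.1 in R 4.3.3 (lmFit, eBayes with trend) on log2(TPM + 1), two-sided, keeping genes that reached 1 TPM in 3 or more of the 6 libraries, and p-values were adjusted by Benjamini-Hochberg across every gene kept. The test was checked on simulated data with 50 changed genes at each size. At a log2 difference of 0.6 the fit without a block recovered 0 of them in each comparison with NPEM. At 1 it recovered 6 in DMEM, 3 in CHIR and 5 in YN1 against NPEM, and at 2 it recovered 34, 34 and 33. The lack of a call for a gene with a difference near 1 or less is therefore weak evidence of no change. The labels give groups the same replicate numbers and the methods describe 3 independent preparations. Same-numbered libraries deviated together, with all 18 correlations of deviations between 0.369 and 0.743 (14084 genes), so the number was taken as a pairing. The 36 pairs of other numbers lay between -0.529 and -0.0652. Deviations within a group of 3 sum to 0, so that range follows largely from the first and is not separate evidence. The fit with the replicate number as a block was the alternative. Shares of ligands were tested by exact permutation. Other alternatives were quantile normalization, no filter, a mean of at least 5 TPM, a pseudocount of 0.1, all 4 groups in 1 fit, no variance trend and leaving out each library, and, chosen after seeing the data, both libraries of a replicate number. Of the wider lists, the genes named were those past adjusted p of 0.05, otherwise the 3 with the smallest unadjusted p of each list, Smad2, Smad4, Smad7, Ski and Pmepa1, and a few named after their values were seen, and 1 gene of the rule is not reported here. Members and lists were chosen with earlier results of these data known. Positions and promoters are RefSeq on GRCm38.p6 (mm10). Python 3.11.15 and matplotlib 3.10.9 drew the figures.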

Additional observations from a re-analysis of the deposited data

How the results depend on the processing

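With 3 libraries per group, and TPM that keep no depth, limits are set by the spread between preparations. The direction of the higher members against NPEM (Tgfb2, Tgfb3, Ltbp1, Smad3 and Skil) did not turn under any alternative. With the replicate block, the count of members past adjusted p rose from 0 to 3 in DMEM against NPEM, to 1 in CHIR against NPEM, to 1 in YN1 against NPEM and to 1 in CHIR against DMEM, and the count past LogFC 0.6 and unadjusted p 0.05 rose from 2 to 4 in CHIR against NPEM and from 0 to 2 in CHIR against DMEM. The block changed the adjusted call of no other member. The block gave 933, 233, 108 and 1832 genes of all those tested in these comparisons, where the fit without it gave 64, 53, 33 and 36. With all 4 groups in 1 fit and the replicate block the counts past adjusted p were 4, 3, 4 and 1, and those past LogFC 0.6 were 6 in CHIR against NPEM and 1 in CHIR against DMEM. All 4 groups without the block gave 1 past adjusted p in CHIR against NPEM, and quantile normalization gave 4 past LogFC 0.6 there. The cause was not tested.

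Quantile normalization reversed the LogFC of Tgfbr1 in CHIR against NPEM (0.056) and, in YN1 against CHIR, of Tgfb2 (-0.074), Tgfbr2 (-0.072) and Skil (-0.070), none of which were called. The no-trend fit called 1 gene of all in YN1 against DMEM, where the other fits called 0. The call of Tagln was lost without the filter in DMEM and CHIR against NPEM (limma adjusted p = 0.164 and 0.153) and, in DMEM only, with a mean of at least 5 TPM, a pseudocount of 0.1 and no trend (0.0515, 0.0516 and 0.0614).

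With libraries left out (1, or both of a replicate number), members past LogFC 0.6 and unadjusted p 0.05 numbered 2 to 5 in DMEM, 2 to 4 in CHIR and 3 to 6 in YN1 against NPEM, 0 to 3 in CHIR against DMEM and 0 to 1 in YN1 against CHIR, and those past adjusted p 0 to 2 in CHIR against NPEM. The following uncalled LogFC changed sign over these fits. In DMEM against NPEM the range was -0.51 to 0.31 for Tgfbr3 and -0.084 to 0.52 for Tgfbr2. In CHIR against NPEM it was -0.27 to 0.25 for Tgfbr1 and -0.38 to 0.22 for Tgfbr2. In YN1 against NPEM it was -0.33 to 0.34 for Tgfbr2 and -0.87 to 0.10 for Tgfb1. In CHIR against DMEM it was -0.71 to 0.30 for Tgfb1, -0.14 to 0.36 for Skil and -0.41 to 0.84 for Tgfb2. In YN1 against DMEM it was -0.29 to 0.16 for Smad3, -0.32 to 0.59 for Tgfb1, -0.15 to 0.88 for Tgfb3, -0.056 to 0.098 for Tgfbr1, -0.038 to 0.39 for Tgfb2 and -0.10 to 0.49 for Skil. In YN1 against CHIR it was -0.78 to 0.37 for Tgfb3, -0.21 to 0.88 for Tgfb1, -0.57 to 0.63 for Tgfb2, -0.18 to 0.34 for Skil and -0.076 to 0.19 for Tgfbr2.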
